A study of Mus musculus with 6 samples.

Results

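The mevalonate arm enzymes are taken here as 8 genes, in pathway order Acat2, Hmgcs1, Mvk, Pmvk, Mvd, Idi1, Fdps and Ggps1, and their rows were found by gene name among the 34745 genes of the deposited table. Each name matched 1 row, and all 8 were among the 15539 genes with enough counts to be tested. RNA was sequenced from 6 tumours of C57BL/6J mice, 3 whose hosts ate a normal diet (ND) and 3 whose hosts ate a high cholesterol diet (HCD). Per the labels, B16F10 mouse melanoma cells had in both diets been grown in culture and placed under the skin of the right flank. Marker genes given below go against that label. No engineered allele and no drug is named for either diet, and the sources used here do not give the make-up or length of the diets or the age of the mice.

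The mevalonate arm joins acetyl-CoA units into mevalonate and turns mevalonate into the isoprenoid diphosphates from which the cell builds squalene, sterols, ubiquinone, dolichol and the lipid anchors of proteins. Its genes are among the classic targets of SREBP2, a membrane-bound transcription factor that is released when the sterol content of the endoplasmic reticulum falls and held back by cholesterol. The transcripts of these enzymes were compared between tumours of hosts on the 2 diets.

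Libraries held 20351637 to 26228074 counts. The labelled tumour type was set against its markers: of 8 pigment cell genes, 4 (Tyr, Dct, Mlana and Oca2) had no count in any library. The summed level of all 8 was 0.437 to 0.794 CPM (counts scaled to a common library size) in ND and 0.966 to 1.30 CPM in HCD tumours. The 10 hepatocyte genes of a second list summed to 4552 to 5675 CPM in ND and 3996 to 5892 CPM in HCD tumours, most of it Alb, while 4 of the 10 (Serpina1a, Fgg, Ahsg and Apoh) averaged under 1 CPM. Each library held 463 to 857 CPM of Afp, 368 to 568 CPM of Apob and 137 to 218 CPM of Hnf4a. Apoa1 had 46.0 to 97.8 CPM and Ttr 6.84 to 15.5 CPM. These markers go against the labelled tumour type, and the tumours are called by their label only. Labels number the tumours within a diet without saying how animals or tumours were kept apart, so the spread behind each p-value is that between the 3 samples of a diet and may be technical.

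Promoters of the members are shown first, because the arm is described as a set of genes under shared sterol control. The letters show where a few short motifs lie and cannot tell whether a gene is under that control. RefSeq promoter windows (build GRCm38.p6, 250 bases before to 50 after a start) were at hand for 7 of the 8 members in 8 windows, with none for Fdps. The motifs below were searched on both strands: TCACNCCAC, a core of the sterol regulatory element bound by SREBP proteins, ATTGG, the inverted CCAAT box of the factor NF-Y, and GGGCGG, the GC box of Sp1. In the sequences, capitals mark these motifs. Each stretch starts 180 bases before the RefSeq start. It ends at the last base before that start, or before an annotated exon where one comes first. Hmgcs1 (chr13:119690171-119690350, plus strand) is shown for its sterol element. Mvk (chr5:114444089-114444268, plus strand) and Mvd (chr8:122443423-122443602, minus strand) are shown for their CCAAT boxes. Acat2 (chr17:12960748-12960905, minus strand) is shown as a member without a match of the first and second motif in its window. Any link between motifs and levels was not tested.
Hmgcs1: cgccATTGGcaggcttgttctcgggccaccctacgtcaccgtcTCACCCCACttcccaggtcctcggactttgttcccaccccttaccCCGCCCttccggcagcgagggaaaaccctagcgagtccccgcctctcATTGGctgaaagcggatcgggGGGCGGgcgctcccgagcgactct
Mvk: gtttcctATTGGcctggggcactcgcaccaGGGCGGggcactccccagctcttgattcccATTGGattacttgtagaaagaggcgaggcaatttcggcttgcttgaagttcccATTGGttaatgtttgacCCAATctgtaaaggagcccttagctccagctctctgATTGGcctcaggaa
Mvd: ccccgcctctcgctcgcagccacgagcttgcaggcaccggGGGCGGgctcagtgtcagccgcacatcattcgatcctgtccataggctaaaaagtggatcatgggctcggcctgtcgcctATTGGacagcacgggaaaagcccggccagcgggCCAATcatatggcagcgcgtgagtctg
Acat2: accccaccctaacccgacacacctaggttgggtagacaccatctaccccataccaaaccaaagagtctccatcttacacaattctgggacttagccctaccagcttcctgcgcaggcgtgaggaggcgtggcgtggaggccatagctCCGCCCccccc

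In the 300-base windows, TCACNCCAC was found for 1 of the 7 members, Hmgcs1, as TCACCCCAC starting at -137 from the RefSeq start. It is present in 1.24% of all 32851 windows. ATTGG or its complement CCAAT was found for 6 of the 7 members, against 37.4% of all windows. Mvk had 5 matches, a number that 0.271% of all windows reach, Hmgcs1 had 4 (1.06% have at least that many), Ggps1 3 (3.37%), and Mvd and Idi1 2 each (11.7%). Pmvk had 1 in the upstream of its windows and none in the other. GGGCGG was found for 5 members, against 35.7% of all windows, and no match of a motif overlapped one of another. A match describes the letters, not a bound site, and these windows leave out any element farther away. Variant forms of the motifs were not searched, so a window without a match may still hold such a site.

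Compared per length, the members spanned a wide range of levels, as the plot of levels by gene and library shows. FPKM (the authors' values, which adjust a count for the length of the gene and the size of the library) averaged 75.8 ± 13.3 for Hmgcs1, 19.6 ± 3.85 for Idi1, 8.31 ± 0.746 for Ggps1 and 8.06 ± 1.17 for Mvd. Lower down came Pmvk at 5.99 ± 0.461, Acat2 at 4.36 ± 0.687, Mvk at 1.95 ± 0.337 and Fdps at 0.496 ± 0.0735 FPKM (SD, n = 6 for each gene). Hmgcs1 made up 58.3% to 62.4% of the summed FPKM of the members in each library and ranked 435 among the genes tested. The median tested gene had 4.02 FPKM, so Mvk and Fdps lay below it. Between neighbours in this order the ranges over the 6 libraries overlapped for 1 pair, Ggps1 and Mvd, with Ggps1 above Mvd in 4 of 6 libraries. The order depends on gene length: with the exon lengths of GENCODE M21 in place of those implied by the file it read Hmgcs1, Idi1, Pmvk, Mvd, Acat2, Ggps1, Mvk, Fdps, and the ranges of 3 neighbouring pairs overlapped.

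**Figure D1:**
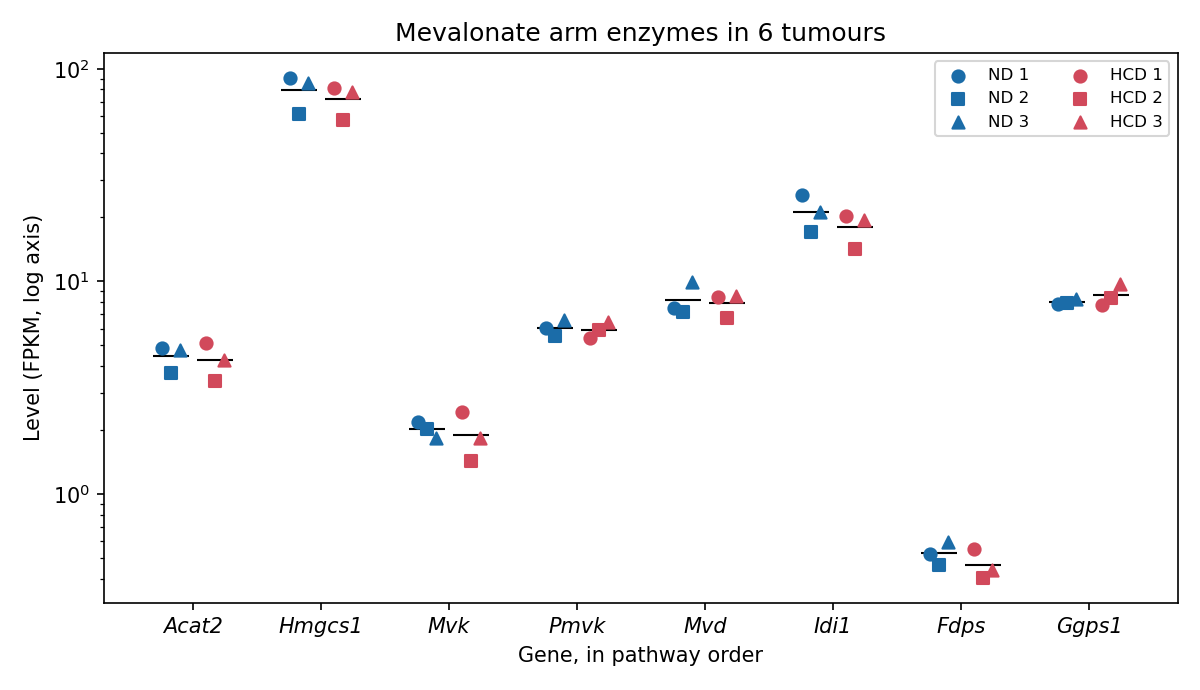
Level of each member in FPKM on a log axis, in pathway order, 1 point per library (blue ND, red HCD, shape by tumour number) and a black line at the mean of a diet. Hmgcs1 is the highest member in every library, and the points of the diets overlap for all 8 genes.

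Relatives of the members were in the table as well. Acat1, the mitochondrial acetoacetyl-CoA thiolase, lay above Acat2 in every library, with a ratio of Acat2 to Acat1 of 0.373 to 0.561. Idi2, a second isopentenyl diphosphate isomerase, had 0 to 7 counts in a library and was not tested.

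Some member rows are uncertain because other annotated genes carry the same letters, and the sources used here do not say how such reads were treated. Fdps (ENSMUSG00000059743, chromosome 3, 89093588 to 89101959, minus strand, GRCm38) is the clearest case. Of the bases of its longest coding transcript, 91.4% match transcripts of 6 other annotated genes at 95% identity or more, 5 of them processed pseudogenes. Of its annotated exon bases, 26.7% also belong to Gm43738 on the same strand, a gene with 0 counts in all 6 libraries. Fdps itself had 47 to 70 counts in a library. Whether its place at the bottom of the order describes the amount of its transcript was not tested. Acat2 shares 65.6% of its longest transcript with Acat3 and Tcp1, and against 244 to 390 counts for Acat2, Acat3 had 12 to 38 and Tcp1, a chaperonin subunit gene, 4935 to 6531 counts. The matched share was 33.3% for Idi1, 27.3% for Ggps1 and 16.2% for Hmgcs1, and no such match was found for Mvk, Pmvk or Mvd.

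Between the diets, no member differed beyond the spread between tumours. Fold changes of HCD over ND were negative for 7 of 8 members, with a median log2 fold change of -0.09 against 0.01 for all tested genes, of which 47% were negative. By the quasi-likelihood F-test of edgeR with Benjamini-Hochberg adjustment over all genes, 0 of 8 members passed in either direction, and adjusted p ran from 0.842 (Idi1) to 0.942 (Pmvk). The same test called 0% of all genes higher and 0% lower. At an unadjusted p under 0.05 there were 0 members, against 1.81% of all genes higher and 3.48% lower, and by the DESeq2 Wald test 0 members passed, against 0.00404% and 0.0242%. For no member did the 3 HCD libraries lie all below or all above the 3 ND libraries, which happened for 6.36% and 4.74% of all genes. With 7 of 8 signs negative in genes that vary together, and a median that turned positive without 1 library (0.03 without HCD 2), the sign count is a description of these 6 libraries. As these are pieces of whole tumour, fewer cells of a type and less RNA per cell cannot be told apart.

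Acat2 (ENSMUSG00000023832, chromosome 17, 12942890 to 12960747, minus strand), the cytosolic thiolase that joins a pair of acetyl-CoA units, opens the arm. Its level in ND 1 to ND 3 was 4.87, 3.72 and 4.76 FPKM, and in HCD 1 to HCD 3 it was 5.15, 3.41 and 4.26 FPKM. Both the highest and the lowest library were HCD tumours, so the diets overlapped fully. Its log2 fold change was -0.07 ± 0.19 SE, with a 95% interval from -0.51 to 0.37.

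Hmgcs1 (ENSMUSG00000093930, chromosome 13, 119690379 to 119708260, plus strand), the cytosolic synthase that makes HMG-CoA, is the member whose promoter above holds the sterol element. Its level was 90.6, 61.3 and 85.7 FPKM in ND 1 to ND 3 and 81.1, 57.7 and 78.2 FPKM in HCD 1 to HCD 3. In both diets the tumour numbered 2 was the low one, and ND 2 lay below HCD 1 and HCD 3. The diet means were 79.2 ± 15.7 FPKM in ND and 72.3 ± 12.8 FPKM in HCD tumours (SD, n = 3 each). The log2 fold change was -0.14 ± 0.19 SE (95% interval -0.59 to 0.30, adjusted p = 0.889 by edgeR), that is, the interval runs from 0.662 to 1.24 times the ND level. Without HCD 2 it was 0.00440, and without ND 1 -0.02.

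The kinases and the decarboxylase follow, which phosphorylate mevalonate in sequence and release carbon dioxide to give isopentenyl diphosphate. Mvk (ENSMUSG00000041939, chromosome 5, 114444269 to 114460591, plus strand), the mevalonate kinase gene, had 2.17, 2.03 and 1.83 FPKM in ND and 2.42, 1.43 and 1.84 FPKM in HCD tumours (tumours 1 to 3 of each diet). The HCD libraries spanned the whole ND range, and the log2 fold change was -0.10 ± 0.21 SE. Pmvk (ENSMUSG00000027952, chromosome 3, 89454541 to 89469013, plus strand), the phosphomevalonate kinase gene, had 6.03, 5.52 and 6.59 FPKM in ND and 5.44, 5.92 and 6.41 FPKM in HCD tumours. It was the member with the smallest spread, its highest library standing 1.24 times above its lowest on the CPM scale. Its log2 fold change was -0.04 ± 0.12 SE, with an interval from -0.32 to 0.24. Mvd (ENSMUSG00000006517, chromosome 8, 122433601 to 122443422, minus strand), the decarboxylase gene, had 7.53, 7.17 and 9.94 FPKM in ND and 8.48, 6.73 and 8.52 FPKM in HCD tumours. ND 3 was its highest library, and without ND 3 its log2 fold change moved from -0.06 ± 0.17 SE to 0.09.

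Idi1 (ENSMUSG00000058258, chromosome 13, 8885501 to 8892451, plus strand), the isomerase that converts isopentenyl into dimethylallyl diphosphate, had the lowest p of the members. Its level was 25.6, 17.0 and 21.2 FPKM in ND and 20.4, 14.3 and 19.4 FPKM in HCD tumours. ND 1 and ND 3 lay above all HCD tumours and ND 2 below HCD 1 and HCD 3. The means were 21.3 ± 4.29 FPKM in ND and 18.0 ± 3.29 FPKM in HCD tumours (SD, n = 3 each). The log2 fold change was -0.25 ± 0.19 SE (95% interval -0.71 to 0.20, adjusted p = 0.842 by edgeR). It was -0.09 without ND 1, -0.10 without HCD 2 and -0.40 without ND 2, with the adjusted p at 0.598 or above in all fits that left out 1 library.

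The prenyltransferases close the arm. Fdps, which makes farnesyl diphosphate, the branch point between sterols and the other isoprenoids, had 68, 69 and 70 counts in ND 1 to ND 3 and 64, 47 and 52 counts in HCD 1 to HCD 3. In FPKM these were 0.523, 0.462 and 0.596 in ND and 0.553, 0.404 and 0.437 in HCD tumours. Counting error alone gives the lowest library, HCD 2, an exact Poisson 95% interval of 34.5 to 62.5 counts, and its log2 fold change was -0.20 ± 0.24 SE. Ggps1 (ENSMUSG00000021302, chromosome 13, 14050659 to 14063488, minus strand), which extends farnesyl to geranylgeranyl diphosphate for the lipid anchors of proteins, was the one member with a positive fold change. Its level was 7.83, 7.89 and 8.30 FPKM in ND and 7.72, 8.38 and 9.73 FPKM in HCD tumours, where HCD 3 stood above all others and HCD 1 below. The log2 fold change was 0.09 ± 0.12 SE (95% interval -0.19 to 0.38), and -0.02 without HCD 3.

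**Figure D2:**
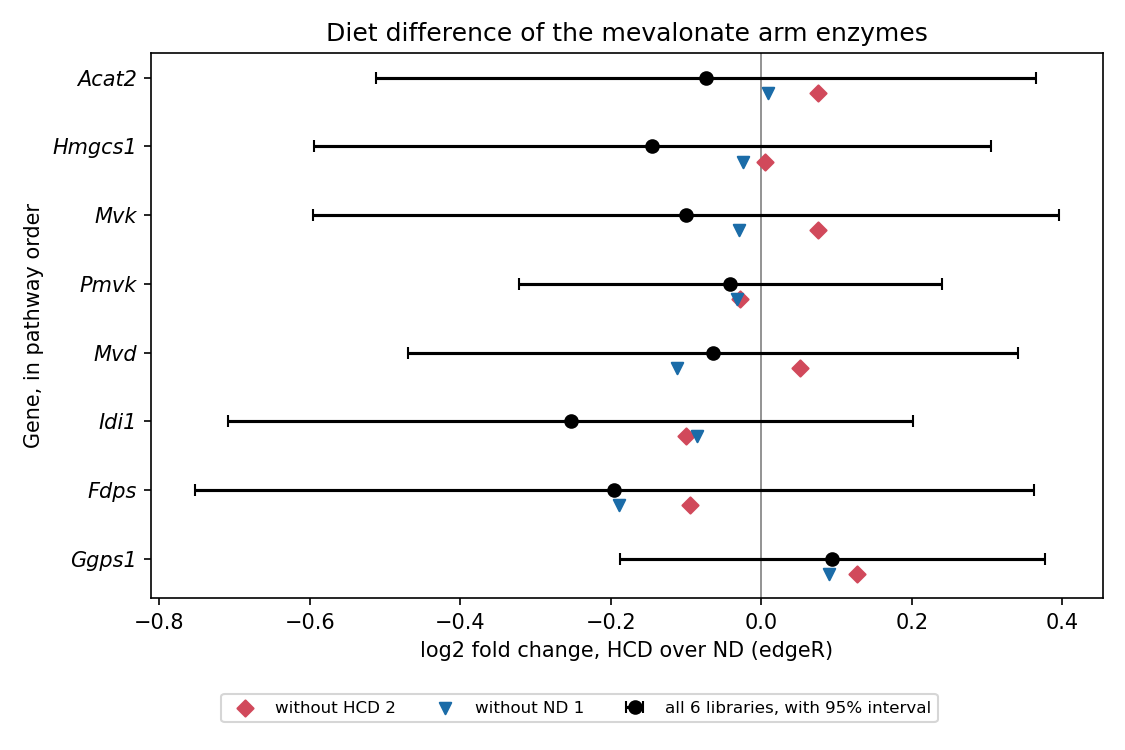
Log2 fold change of HCD over ND for each member, with the 95% interval from edgeR in all 6 libraries (black) and the value without HCD 2 (red) or without ND 1 (blue). All 8 intervals include 0. Without HCD 2 the values of Acat2, Hmgcs1, Mvk and Mvd lie above 0, as does that of Ggps1, which is positive in all 6 libraries together.

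The spread between tumours was larger than the gap between diets and was shared by most members. HCD 2 was the lowest of the 6 libraries for 6 of 8 members (all but Pmvk and Ggps1), against 21.7% of all tested genes. The share was similar among hepatocyte markers, where HCD 2 was the lowest for 5 of the 7 tested genes. For 4 members, Acat2, Hmgcs1, Mvd and Idi1, HCD 2 and ND 2 were the lowest pair, against 7.97% of all tested genes. On the CPM scale HCD 2 lay below the mean of the other 5 libraries by 32.3% for Idi1, 31.4% for Mvk, 28.5% for Hmgcs1, 26.3% for Acat2, 22.6% for Fdps and 20.5% for Mvd. For Pmvk the gap was 2.94% and for Ggps1 0.714%. The SD of log2 CPM over the 6 libraries had a median of 0.229 over the members and of 0.184 over all tested genes.

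**Figure D3:**
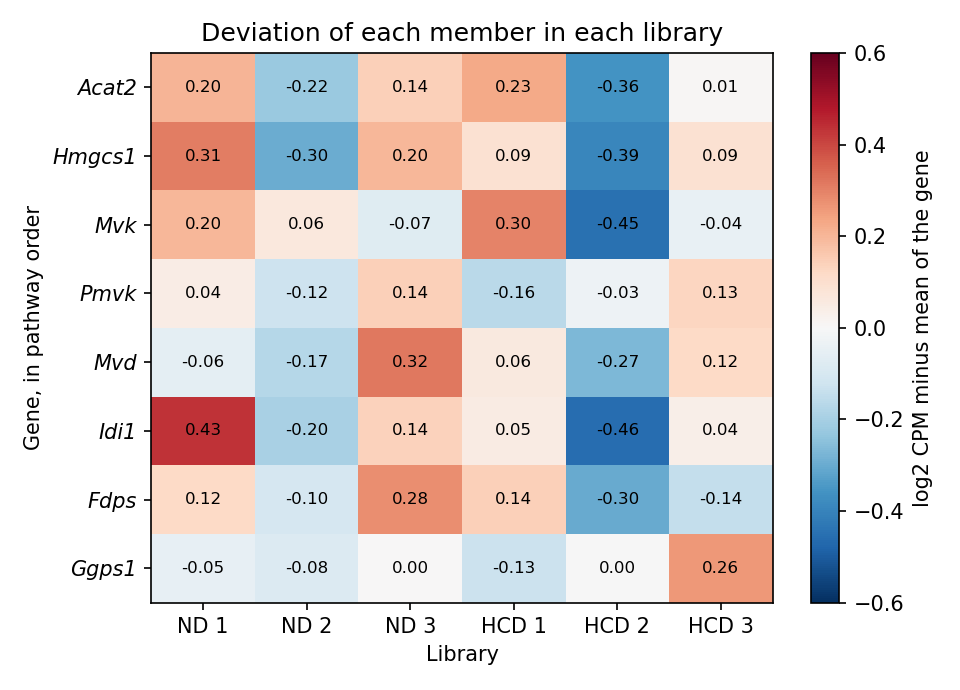
Log2 CPM of each member in each library, as the difference from its 6-library mean (red above, blue below the mean, numbers give the value). HCD 2 is low for Acat2, Hmgcs1, Mvk, Mvd, Idi1 and Fdps, and Pmvk and Ggps1 show another pattern.

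By Pearson's r, members at the start of the arm and the isomerase moved most closely together. Over the 6 libraries, Pearson's r of log2 CPM was 0.956 between Hmgcs1 and Idi1 and 0.943 between Hmgcs1 and Acat2. Against the mean of the other 7 members it was 0.971 for Hmgcs1, 0.934 for Acat2, 0.902 for Idi1, 0.792 for Fdps, 0.741 for Mvd and 0.566 for Mvk. Pmvk (0.366) and Ggps1 (-0.00653) did not follow the rest, and these gave an r of 0.719 with each other. The order of the pairs depends on the measure. Spearman's correlation, which uses ranks, was 0.943 between Hmgcs1 and Idi1, 0.886 between Pmvk and Ggps1 and 0.657 between Hmgcs1 and Acat2. All of these values describe 6 points that share their libraries and depth, and no test was made of them.

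For most enzymes downstream of the arm, HCD 2 was the lowest library as well. Among the 13 enzymes from squalene to cholesterol, all tested, 0 passed in either direction, 11 had a negative fold change and the median was -0.22. That median was -0.05 without HCD 2, -0.12 without ND 1, -0.35 without ND 2 and -0.34 without HCD 1. HCD 2 was the lowest library for 11 of the 13, and HCD 2 and ND 2 were the lowest pair for 9 of the 13. The score of this list, its mean log2 CPM deviation, was 0.24, -0.13 and 0.22 in ND and 0.02, -0.38 and 0.03 in HCD tumours, and the score of the mevalonate arm was 0.15, -0.14 and 0.14 against 0.07, -0.28 and 0.06. Sqle, the squalene epoxidase gene and the member of that list with the highest level, had 36.3 ± 5.81 FPKM in ND and 31.3 ± 6.27 FPKM in HCD tumours (SD, n = 3 each). Tm7sf2, a sterol reductase gene, had the largest change of the list, with 1.41, 1.16 and 1.71 FPKM in ND and 1.11, 0.988 and 1.02 FPKM in HCD tumours. Its 3 HCD libraries lay below all ND libraries, as for 6.36% of all genes, and its log2 fold change was -0.47 ± 0.18 SE (adjusted p = 0.839 by edgeR). The genes with positive fold changes, named after their values were seen, were Ebp and Lbr, at 0.04 each on the log2 scale, and in neither of them was HCD 2 the lowest library.

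Of the 7 genes that encode SREBPs or act in their processing, 0 passed and 5 had a negative fold change. For 3 of the 7 (Srebf2, Insig2 and Mbtps1) all HCD libraries lay below all ND libraries on the CPM scale, against 6.36% of all genes. Srebf2, which encodes SREBP2, had 61.9, 53.8 and 55.6 FPKM in ND and 53.9, 40.2 and 49.8 FPKM in HCD tumours. On this scale ND 2 lay just below HCD 1, whereas on the CPM scale the diets did not overlap, and the log2 fold change was -0.27 ± 0.12 SE (adjusted p = 0.839 by edgeR).

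Of the 12 genes that use the products of the arm, for ubiquinone, dolichol and protein prenylation, 0 passed, 6 had a negative fold change and the median was -0.01. Fntb, the farnesyltransferase beta subunit gene, had the largest change, at -0.16 ± 0.18 SE, and Fnta, the alpha subunit shared with the geranylgeranyl enzyme, the highest level, at 25.6 ± 1.43 FPKM (SD, n = 6). HCD 2 was the lowest library for 3 of these 12. Acat1, the related thiolase, did not pass either, with a log2 fold change of 0.11 ± 0.09 SE (adjusted p = 0.854 by edgeR).

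Cell type markers differed between the tumours as well. In HCD 2, where the arm scored lowest, the leucocyte and endothelial scores were the highest of the 6 (0.85 and 0.76) and the hepatocyte score the lowest (-0.57). Without Ahsg, a gene with 2 counts in HCD 2, the hepatocyte score of HCD 2 was -0.32 and still the lowest. With Ahsg included, the hepatocyte score had an r of 0.919 with the arm score over the 6 libraries. No r was computed without Ahsg, where the hepatocyte score of ND 3 was -0.12 against an arm score of 0.14. The r with the arm score was 0.974 for the list from squalene to cholesterol and 0.847 for the SREBP list. It was -0.852 for endothelial, -0.766 for adipocyte, -0.630 for leucocyte, -0.552 for skeletal muscle and -0.375 for fibroblast scores. The 12 leucocyte markers summed to 747 to 1693 CPM in ND and 1392 to 2465 CPM in HCD tumours, and the 6 endothelial markers to 148 to 189 CPM and 164 to 334 CPM, the upper end being HCD 2 in both. ND 1, with the highest score of the arm, had the lowest leucocyte score (-1.23). Of the 12 leucocyte markers, S100a9 went the other way, with 45.5 CPM in ND 1, its highest library, and Itgam was lowest in HCD 1. Skeletal muscle markers summed to 1789 CPM in ND 2 and 1795 CPM in HCD 1, 204 CPM in HCD 2 and 10.8 to 24.1 CPM in the other libraries. The arm scored -0.14 in ND 2, 0.07 in HCD 1, -0.28 in HCD 2 and 0.06 to 0.15 in the other libraries. Adipocyte scores were above 0 in ND 2, HCD 1 and HCD 2 and below 0 in the others. Their summed levels were 40.0 to 43.2 CPM in ND and 26.4 to 76.2 CPM in HCD tumours. Fibroblast markers summed to 2828 to 4131 CPM in ND and 2624 to 3888 CPM in HCD tumours. Of the 8 fibroblast markers, HCD 2 was the lowest library for 1, Dcn. The part of these markers in the levels of the members was not tested.

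**Figure D4:**
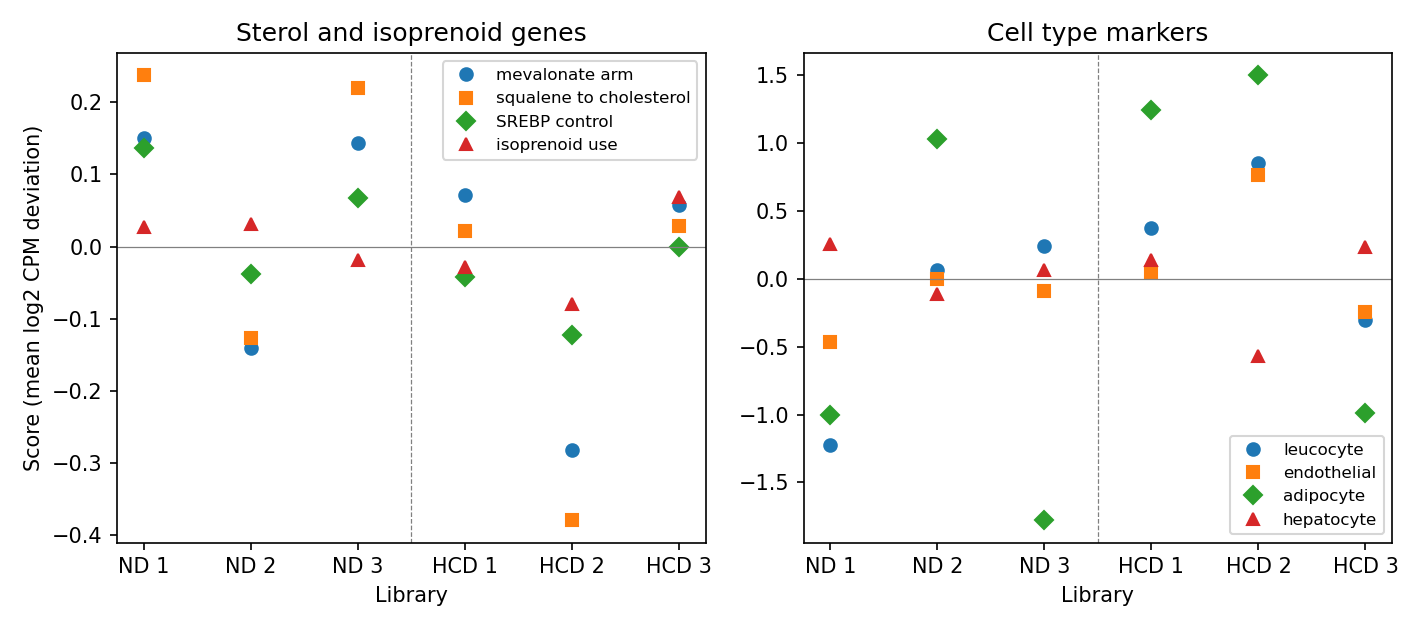
Scores by library (the mean, over the tested genes of a list, of log2 CPM relative to each gene's own mean), left for the sterol and isoprenoid lists and right for cell type markers. The left and right axes have different ranges. HCD 2 has the lowest arm and hepatocyte scores and the highest leucocyte, endothelial and adipocyte scores.

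Outside the pathway lists, 5 named genes with at least 10 CPM followed the score of the arm most closely over the 6 libraries. These were Supt5 (Pearson's r = 0.987), a transcription elongation factor gene, Fads1 (0.986), a fatty acid desaturase gene, Prdx2 (0.984), a peroxiredoxin gene, Ap3m1 (0.977), an adaptor complex gene, and Ankrd26 (0.976). Fads1 was at 150, 123 and 144 CPM in ND and 139, 108 and 134 CPM in HCD tumours, so ND 2 and HCD 2 were its lowest libraries as well. Supt5 was lowest in the same pair of libraries, with a smaller range of 162 to 175 CPM. With 9735 genes searched over 6 libraries, high values of r are found by selection. At r of 0.9 or more stood 8 of the 13 enzymes from squalene to cholesterol and 1.36% of all tested genes. None of the 7 genes of SREBPs and their processing, the 12 of isoprenoid use or the 7 tested hepatocyte markers did.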

How the data were processed

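Per the labels' protocols, total RNA of 6 tumours was isolated on columns and made into paired-end libraries with a TruSeq kit. The authors deposited 1 table with raw counts and FPKM for each gene. The submitters' processing notes name build mm10 and the tools CASAVA 1.8, TopHat2 2.0.9, HTSeq and edgeR, without saying which step each served. Annotation, strand setting and the treatment of multiply matching reads are not given in the sources used here. In the deposited FPKM, the length implied for a gene differed between libraries by at most 1.00 times, so FPKM is the count over library total and a fixed length.

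Counts were tested with edgeR 4.0.16 in R 4.3.3 (quasi-likelihood F-test in legacy form, TMM factors from 0.979 to 1.02, default filter with a minimum count of 10 and a minimum total of 15, diet as the only term, all 6 libraries, Benjamini-Hochberg over all genes, threshold 0.05, prior count 0.125). CPM uses library totals scaled by TMM, and scores of gene lists add 0.01 CPM before the log. The standard error is the size of a log2 fold change over the root of its F statistic. Exact Poisson intervals cover counting error only, and 3 counts of a library are 0.114 to 0.147 CPM. A self-test on simulated counts with known changes was run for the edgeR, DESeq2 and limma-voom fits. Alternatives used DESeq2 1.42.0 and limma 3.58.1, including limma on log2(FPKM + 1) and log2(FPKM + 0.1), each after keeping genes that exceed 1 FPKM in 3 or more libraries. Copies were searched with blastn 2.17.0 in GENCODE M21 transcripts (at least 100 bases at 95% identity). Coordinates are GRCm38, the same assembly as mm10.

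Members and lists were chosen with earlier results of these data known. All members are named. From each pathway list the genes with the largest change and the highest FPKM are named, and outside the lists the 5 genes of at least 10 CPM most like the arm, predicted genes and RIKEN clones passed over. A library was to be singled out where it was the lowest or highest for at least 5 of 8 members, which HCD 2 met. ND 1 and ND 2 did not meet it and were singled out after their values were seen. Other enzymes of the arm are not analysed here, and 1 result on a related enzyme is not reported here.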

Additional observations from a re-analysis of the deposited data

How the results depend on the processing

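No member passed the threshold in any of the 18 alternatives, and the median log2 fold change of the members stayed negative in all but 1 of them. Over all genes, 1 was called higher and 6 lower by the Wald test of DESeq2, none of them a member. Leaving out 1 library in turn gave 0 genes higher and 0 to 2 lower (2 without ND 2), 3 to 8 members with a negative fold change and a median from -0.22 (without HCD 1) to 0.03 (without HCD 2). Over these 6 fits, log2 fold changes ran from -0.22 to 0.07 for Acat2, -0.30 to 0.00440 for Hmgcs1, -0.30 to 0.07 for Mvk, -0.12 to 0.03 for Pmvk, -0.16 to 0.09 for Mvd and -0.02 to 0.18 for Ggps1. Idi1 (-0.40 to -0.09) and Fdps (-0.33 to -0.10) were negative in all 6. Signs opposite to those in all 6 libraries came without HCD 2 for Acat2 (0.0746), Hmgcs1 (0.00440), Mvk (0.0747) and Mvd (0.05). They also came without ND 1 for Acat2 (0.00836), without ND 3 for Mvd (0.0909) and Pmvk (0.02) and without HCD 1 for Pmvk (0.0252). Ggps1 was at -0.0234 without HCD 3. Without both tumours numbered 2, an alternative chosen after seeing the data, the median was -0.07 and Mvk was at 0.0735. The cause was not tested. With adjusted deviances the smallest adjusted p over all genes was 0.0939 against 0.839. Fdps was not among the genes above 1 FPKM. Leaving genes under a mean of 1 CPM out of the scores, also chosen later, changed only the hepatocyte (HCD 2 at -0.32) and adipocyte scores (HCD 2 at 1.06), of the 11 lists that kept a gene. With GENCODE M21 exon lengths, likewise chosen later, 3 neighbouring pairs overlapped in level.

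The replicate number as a block gave 0 calls and a median of -0.10 for the members, and Idi1 had an unadjusted p of 0.0275 (adjusted p = 0.865 by edgeR). Same-numbered tumours shared no common deviation (correlations -0.244, 0.0911 and 0.0844), none correlated best with its own number, and the tumours share only a number.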
